A study of Mus musculus with 27 samples.

Results

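Glo1, Btbd9, Hagh and Cwc22 are 4 of the 43346 genes in a table of estimated RNA-seq counts from mouse hepatocytes, and their rows were found by gene symbol in the GENCODE M21 annotation. Glo1 and Cwc22 were chosen by their strain levels in these same libraries, Btbd9 because it lies beside Glo1, and Hagh because it acts after Glo1 in the same pathway. All 4 were among the 14482 genes that passed a filter on low counts. The hepatocytes, the main cell type of the liver, came from female mice, all 12 weeks old, of the strains A/J, DBA/2J, 129S1/SvImJ, PWK/PhJ, C57BL/6J, CAST/EiJ, NZO/HlLtJ, WSB/EiJ and NOD/ShiLtJ. No treatment is named for any strain. Each of these 9 strains has 3 libraries that the labels give as biological replicates, 27 in all. The wider study relates genetic differences between strains to expression and to chromatin in the same mice. C57BL/6J is the strain of the mouse reference genome, and CAST/EiJ, PWK/PhJ and WSB/EiJ are wild-derived.

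Glo1 and Hagh encode the glyoxalase system. Glyoxalase 1, the product of Glo1, converts the adduct of glutathione with methylglyoxal, a reactive by-product of glycolysis. Glyoxalase 2, the product of Hagh, splits the resulting compound into D-lactate and free glutathione. Btbd9 encodes a BTB-domain protein. Cwc22 encodes a splicing factor that brings the helicase Eif4a3 to the spliceosome, where the exon junction complex is laid down on the spliced RNA. Both a gain of the Glo1 segment in some inbred strains and an amplified Cwc22 segment in WSB/EiJ are known from other work. Copy number was not measured here, and the values below are RNA levels.

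Both Glo1 and Cwc22 have close relatives in the reference annotation, so a sequencing read from them can match more than a single gene. Glo1 (ENSMUSG00000024026) lies at chr17:30584936-30626871 on the minus strand of GRCm38. Its coding sequence of 552 bases matched the processed pseudogene Gm13443 (ENSMUSG00000075391, chr2:35340409-35340963, plus strand) over all 552 bases, with 3 substitutions and 99.46% identity. The longest stretch without a difference is 327 bases, and a read that lies within it cannot be told apart between the genes by its sequence.

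Cwc22 (ENSMUSG00000027014) lies at chr2:77881159-77946375 on the minus strand. The annotation places 7 copies of it elsewhere on chromosome 2, on the plus strand between 83955693 and 83993045, named Gm13691 and Gm13693 to Gm13698 and typed as protein coding. The coding sequence of Gm13691 (chr2:83990553-83993045) aligned to 2474 of the 2724 coding bases of Cwc22, with 39 substitutions, 40 gap bases and 98.42% identity outside the gaps. Positions 208 to 327, counted from 1 at the first base of the Cwc22 coding sequence, are shown because 8 of the substitutions, in capitals, fall there.
Cwc22: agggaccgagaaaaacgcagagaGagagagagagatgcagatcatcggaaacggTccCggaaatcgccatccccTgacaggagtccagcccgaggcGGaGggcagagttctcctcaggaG
Gm13691: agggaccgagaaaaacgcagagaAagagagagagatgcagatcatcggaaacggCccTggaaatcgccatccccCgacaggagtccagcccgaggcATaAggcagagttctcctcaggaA
The longest identical stretch, at positions 493 to 836 of Cwc22, is 344 bases long, and its first 120 bases are shown because reads within it cannot be assigned by their sequence.
Cwc22 and Gm13691: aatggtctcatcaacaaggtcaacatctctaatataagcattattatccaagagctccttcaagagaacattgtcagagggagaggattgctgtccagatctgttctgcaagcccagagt
The 2493-base transcripts of all copies but Gm13695 are identical to each other.

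The library totals ran from 17015956 to 35078511 estimated counts, and 1 count corresponded to 0.0253 to 0.0516 CPM (counts scaled to library size with TMM factors). The 8 hepatocyte markers together summed to 99340 to 306200 CPM over the libraries, and each marker alone is not given here. By strain this sum was highest in A/J (263300 ± 40630 CPM) and WSB/EiJ (215900 ± 16240), against 158100 ± 19800 in C57BL/6J and 108400 ± 7907 in CAST/EiJ, the lowest (SD, n = 3 each). A/J and WSB/EiJ are also the strains with the most Glo1 and Cwc22, and the part of this in those levels was not tested. Markers of Kupffer cells, the macrophages of the liver, summed to 208 ± 30.3 CPM in C57BL/6J, the highest strain, and 50.2 ± 21.3 CPM in 129S1/SvImJ, the lowest. Endothelial markers were highest in PWK/PhJ, at 235 ± 164 CPM, and lowest in NZO/HlLtJ, at 45.7 ± 11.8 CPM (SD, n = 3 each). The highest library reached 76.2 CPM for stellate cells, 34.1 CPM for erythroid cells, 11.02 CPM for lymphocytes and 3.62 CPM for bile duct cells. In such bulk samples, fewer cells of a type and less RNA per cell cannot be told apart.

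Glo1 was highest in A/J and lowest in NOD/ShiLtJ and WSB/EiJ. The A/J libraries had 1089, 714 and 1043 CPM, a mean of 949 ± 205 (SD, n = 3), and the C57BL/6J libraries had 414, 345 and 328 CPM, a mean of 362 ± 45.3 (SD, n = 3). DBA/2J followed A/J with 670, 655 and 561 CPM, and 129S1/SvImJ with 561, 532 and 713 CPM, so that in the TMM scale the A/J libraries lay above all others. Over all tested genes, A/J lay above the other 24 libraries in 0.732% in that scale. The means were 628 ± 59.1 CPM in DBA/2J and 602 ± 97.4 CPM in 129S1/SvImJ (SD, n = 3 each), and the libraries of these strains overlapped.

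A middle level was shared by PWK/PhJ (377 ± 31.9 CPM), C57BL/6J and CAST/EiJ (351 ± 18.9 CPM), whose libraries overlapped. Below a gap came NZO/HlLtJ with 227 ± 13.2 CPM, WSB/EiJ with 204 ± 13.5 CPM and NOD/ShiLtJ with 195.5 ± 24.7 CPM (SD, n = 3 each), and neighbours in that order overlapped again. In the TMM scale the order thus had 3 steps without overlap, below A/J, below 129S1/SvImJ and below CAST/EiJ. Against C57BL/6J the mean was 2.62 times as high in A/J, 1.74 times in DBA/2J and 1.66 times in 129S1/SvImJ. In each of these 3 strains all libraries lay above those of C57BL/6J, as in 9.99%, 11.3% and 17.8% of tested genes in the same strains. It was 0.626 times as high in NZO/HlLtJ, 0.563 in WSB/EiJ and 0.54 in NOD/ShiLtJ, where all libraries lay below those of C57BL/6J (23.0%, 14.9% and 17.1% of tested genes). Because Glo1 was chosen for this pattern, its levels are a description and carry no test. With library totals alone as the scale the lowest strain turned to WSB/EiJ (164 CPM against 208 in NOD/ShiLtJ), and 129S1/SvImJ (684 CPM) stood above DBA/2J (607 CPM). In that scale A/J, with 642 CPM in its lowest library, overlapped 129S1/SvImJ, with 762 CPM in its highest, so the step below A/J was lost. A/J, 129S1/SvImJ and DBA/2J together still lay above all other libraries, and CAST/EiJ, PWK/PhJ and C57BL/6J together above NZO/HlLtJ. The libraries of NZO/HlLtJ, NOD/ShiLtJ and WSB/EiJ no longer overlapped each other there. That scale moved the median of all tested genes against C57BL/6J by between -0.12 on the log2 scale in WSB/EiJ and 0.34 in NZO/HlLtJ.

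**Figure D1:**
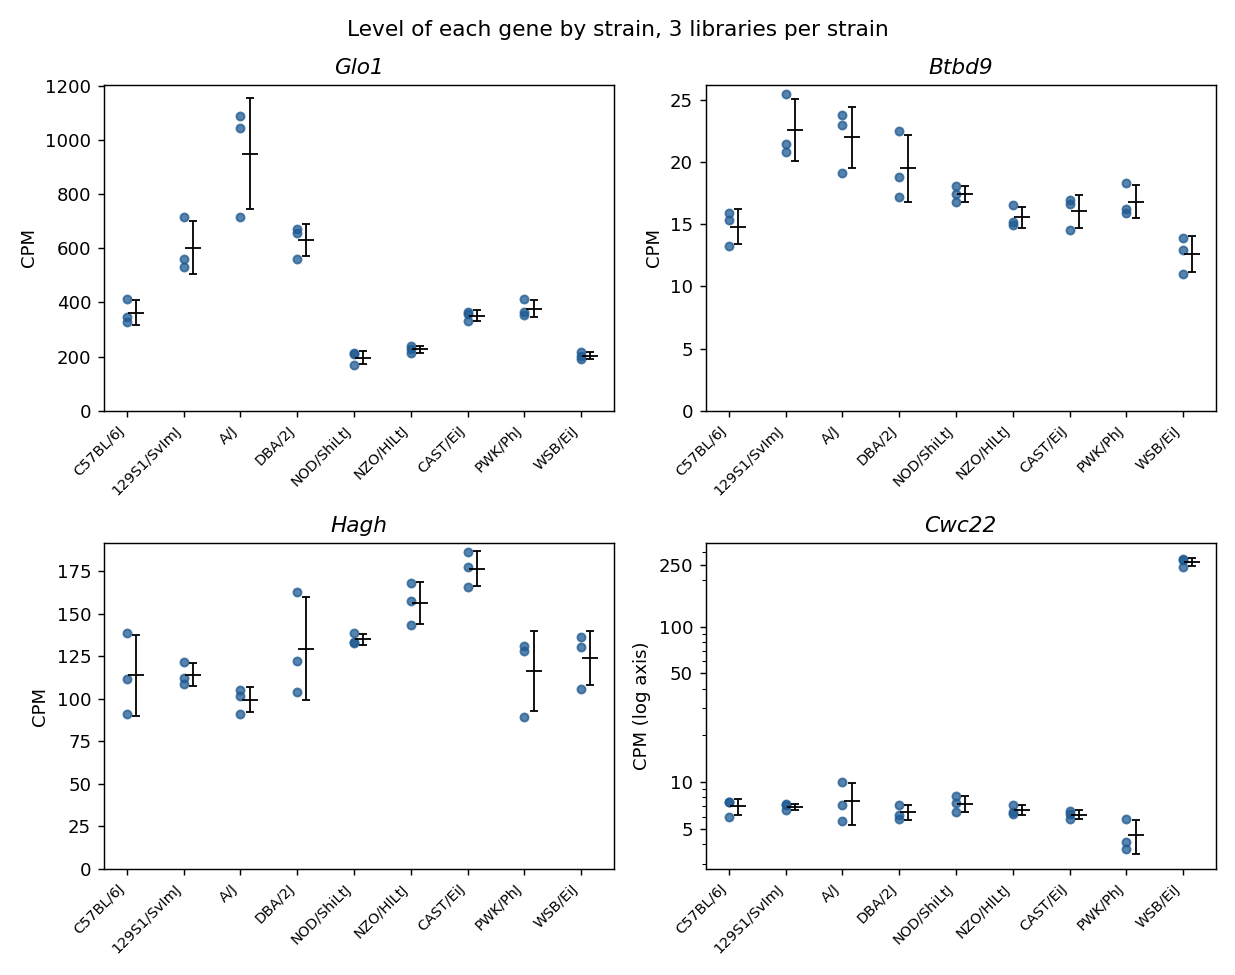
CPM of Glo1, Btbd9, Hagh and Cwc22 (log axis for Cwc22) in each library (points) by strain, with the mean and SD of 3 libraries beside them. The A/J mean is the highest for Glo1, CAST/EiJ has the highest mean for Hagh, and Cwc22 in WSB/EiJ lies at 243 to 272 CPM against at most 10.1 CPM in any other library.

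The estimated counts of Glo1 were not whole in 27 of 27 libraries, at a tolerance of 0.001. Among the 13016 genes averaging at least 10 counts, 12.6% were not whole in all 27 libraries and 59.6% were whole in all of them. Gm13443, the pseudogene described above, was not whole in 27 libraries either, and the counts given to it differed widely between strains. It had 292, 194 and 294 CPM in A/J, but 0.342, 1.52 and 0.715 CPM in C57BL/6J and 1.56, 0.790 and 1.46 CPM in PWK/PhJ. The remaining strains had means of 55.4 ± 7.02 CPM in WSB/EiJ to 104 ± 15.7 CPM in CAST/EiJ (SD, n = 3 each). C57BL/6J and PWK/PhJ therefore stood apart as the strains in which Gm13443 was close to absent from the table. These counts share reads with Glo1 and are given without a test.

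As a share of the counts given to Glo1 and Gm13443 together, the pseudogene took 27.8% ± 2.51 in NOD/ShiLtJ, the highest strain, and 13.3% ± 0.545 in DBA/2J, the lowest apart from the following pair. It took 0.333% ± 0.0962 in PWK/PhJ and 0.247% ± 0.182 in C57BL/6J (SD, n = 3 each). Strains thus differed in how many of these reads were counted outside Glo1. Glo1 plus Gm13443 had 1209 ± 262 CPM in A/J, 725 ± 67.3 in DBA/2J, 698 ± 98.2 in 129S1/SvImJ and 363 ± 44.95 in C57BL/6J (SD, n = 3 each). The mean in A/J was then 1.67 times that in DBA/2J, against 1.51 times for Glo1 alone, and 3.33 times that in C57BL/6J, the DBA/2J mean 2.0 times and the 129S1/SvImJ mean 1.92 times. CAST/EiJ, at 455 ± 34.6 CPM, now lay above PWK/PhJ (378 ± 32.2 CPM) and C57BL/6J without overlap. Over all tested genes, CAST/EiJ lay above C57BL/6J in 24.5%, and the share against PWK/PhJ is not given here. At the lower end NZO/HlLtJ had 299 ± 18.0 CPM, NOD/ShiLtJ 270.4 ± 28.3 CPM and WSB/EiJ 259 ± 20.5 CPM (SD, n = 3 each), so that WSB/EiJ was now the lowest. In the TMM scale the libraries of these 3 strains lay below those of C57BL/6J, as in 23.0%, 17.1% and 14.9% of tested genes. With library totals as the scale NZO/HlLtJ and NOD/ShiLtJ overlapped C57BL/6J, the NZO/HlLtJ mean (359 CPM) stood above that of C57BL/6J (334 CPM), and of the 3 strains WSB/EiJ alone stayed below without overlap. The genome to which the reads of each strain were aligned is not given in the sources used here, and its part in these shares was not tested.

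**Figure D2:**
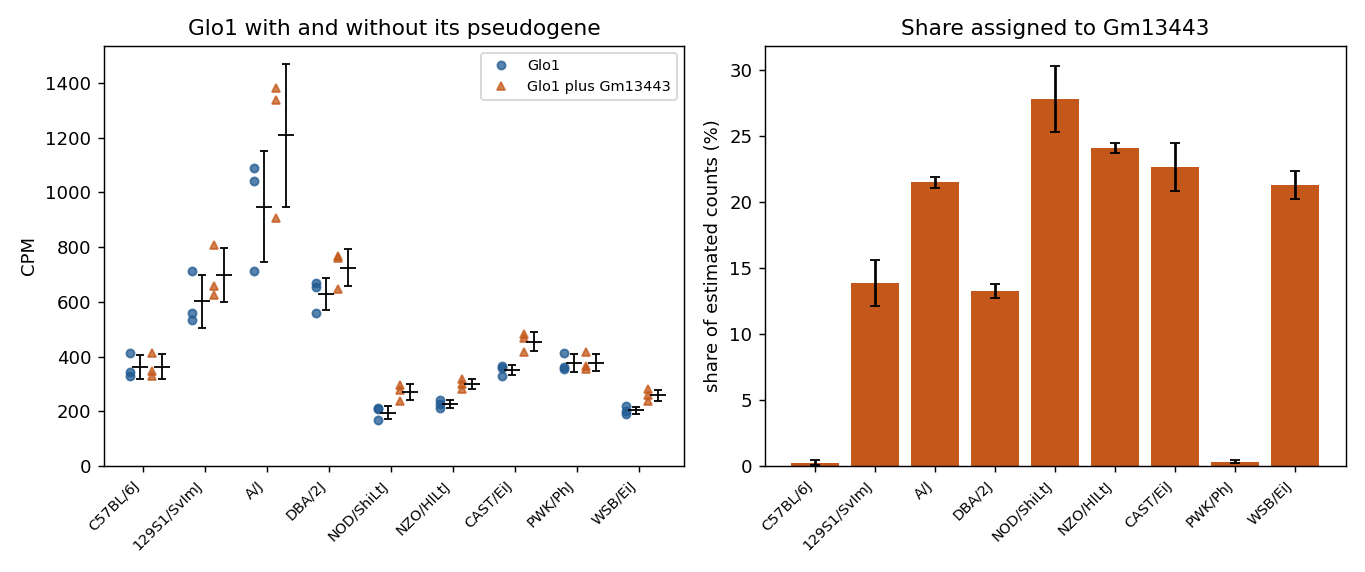
Left, CPM of Glo1 alone (circles) and of Glo1 plus Gm13443 (triangles) in each library, with mean and SD of 3 libraries per strain; right, the mean share of their summed estimated counts given to Gm13443, with SD. The share is near 0 in C57BL/6J and PWK/PhJ and between 13.3% and 27.8% in the other strains.

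Btbd9 (ENSMUSG00000062202, chr17:30215524-30576488, minus strand) ends 8447 bases from the annotated Glo1 span, and its counts were whole in all 27 libraries. It had 20.8, 21.4 and 25.5 CPM in 129S1/SvImJ, 23.0, 23.8 and 19.2 CPM in A/J and 17.2, 18.8 and 22.5 CPM in DBA/2J. C57BL/6J had 15.9, 15.3 and 13.2 CPM and WSB/EiJ 11.04, 13.9 and 12.9 CPM. The 3 strains with the highest Glo1 also had the highest Btbd9 means in the TMM scale, in which none of their libraries overlapped C57BL/6J. Over all tested genes, all libraries lay above C57BL/6J in 17.8% for 129S1/SvImJ, 9.99% for A/J and 11.3% for DBA/2J. With library totals as the scale the lowest library of A/J (13.8 CPM) and of DBA/2J (15.7 CPM) fell below the highest of C57BL/6J (16.2 CPM), and 129S1/SvImJ alone of the 3 stayed apart, with 24.8 CPM at the lowest. The NOD/ShiLtJ libraries (17.4, 18.1 and 16.8 CPM), from the strain with the lowest Glo1 mean, also lay above C57BL/6J for Btbd9, as in 17.4% of tested genes. The means of the other strains were 17.4 ± 0.628 CPM in NOD/ShiLtJ, 16.8 ± 1.34 in PWK/PhJ, 16.1 ± 1.34 in CAST/EiJ and 15.6 ± 0.847 in NZO/HlLtJ (SD, n = 3 each). Every strain overlapped the next one in the order, so the levels formed a gradual series.

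Btbd9 differed among the strains (edgeR quasi-likelihood adjusted p 7.14e-05) in a test where 74.2% of all tested genes were called. Against C57BL/6J, Btbd9 rose in A/J by 0.57 ± 0.13 on the log2 scale (SE, adjusted p 0.00525), a call that 7.84% of all genes received (3.81% higher and 4.03% lower). The difference was 0.4 ± 0.13 in DBA/2J (SE, adjusted p 0.0587) and -0.23 ± 0.13 in WSB/EiJ (SE, adjusted p 0.278), neither of which passed. With library totals as the scale the A/J mean was still 1.35 times that of C57BL/6J, against 1.48 times in the TMM scale, but A/J fell to sixth place of the strains. With the Kupffer and endothelial markers as covariates, Btbd9 still differed among the strains (edgeR quasi-likelihood adjusted p 8.59e-05).

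Dnah8 (ENSMUSG00000033826, chr17:30624354-30877365, plus strand), an axonemal dynein gene, begins inside the annotated span of Glo1, with which it shares 2518 bases on the opposite strand. Its level was low, with 53, 30 and 11 counts in 129S1/SvImJ, 29, 9 and 20 in A/J and 29, 14 and 12 in DBA/2J, against 3, 2 and 2 in C57BL/6J. PWK/PhJ, with a middle Glo1 level, had 14, 15 and 28 counts, and NOD/ShiLtJ, with the lowest, had 22, 12 and 11, so that both overlapped the 3 strains with the most Glo1. Dnah8 averaged 0.954 CPM in 129S1/SvImJ, 0.845 in A/J, 0.77 in DBA/2J, 0.668 in PWK/PhJ, 0.504 in NOD/ShiLtJ, 0.198 or less in NZO/HlLtJ, CAST/EiJ and WSB/EiJ, and 0.0896 in C57BL/6J. Its strain effect had an edgeR adjusted p of 4.39e-04. It rose in A/J (adjusted p 0.0043) and DBA/2J (adjusted p 0.00571), but with so few counts in C57BL/6J the size of the rise is uncertain. Counts of Dnah8 were whole in all 27 libraries. The library kit is not stated to keep the strand, and the strand of reads from the shared bases is not known here. Glp1r (ENSMUSG00000024027), the receptor of glucagon-like peptide 1 farther along the chromosome, had 2 counts in a DBA/2J library, 2 in a NOD/ShiLtJ library and 0 in all others, and was not tested.

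Of the 64 annotated genes that start within 1 Mb of the Glo1 start, 32 were in the table and 16 were tested. Among them 14 (87.5%) differed among the 9 strains, against 74.2% of all tested genes, and the median range of strain means was 1.02 on log2(CPM + 0.5), against 0.94 for all genes. In A/J 2 neighbours rose (Btbd9 and Dnah8) and 1 fell (the phosphodiesterase gene Pde9a), where 3.81% of all genes were higher and 4.03% lower. In DBA/2J 2 rose (Dnah8 and Pde9a) and none fell, where 9.06% of all genes were called (4.9% higher and 4.16% lower). WSB/EiJ had 1 neighbour that rose (Tff3, which encodes a trefoil peptide) and none that fell, where 13.6% were called (6.88% higher and 6.76% lower). No neighbour was lower in DBA/2J or WSB/EiJ at an unadjusted p under 0.05 in edgeR (10.4% and 13.1% of all genes) or after adjustment in DESeq2 either (0 in each). Tff3 had 1.28 ± 2.08 CPM in WSB/EiJ and 0 in all C57BL/6J libraries, so its SD exceeded its mean. Pde9a had 22.3 ± 0.457 CPM in DBA/2J and 7.64 ± 0.867 CPM in A/J (SD, n = 3 each), so these strains stood at opposite ends for this gene.

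The other neighbours that differed by at least 1 on that scale did not have their highest mean in A/J, DBA/2J or 129S1/SvImJ. Ubash3a, a phosphatase-like gene of lymphocytes, had 10.1 ± 3.77 CPM in PWK/PhJ and 0 in 129S1/SvImJ, and Abcg1, a sterol exporter, had 7.64 ± 5.63 CPM in PWK/PhJ and 1.25 ± 0.299 CPM in NOD/ShiLtJ (SD, n = 3 each). PWK/PhJ also had the highest summed lymphocyte markers, 6.38 ± 4.04 CPM, and endothelial markers, and 1 of its libraries reached 364 CPM for Kupffer cells against a strain mean of 204.5 ± 138.5 (SD, n = 3 each). The part of these cells in the levels of Ubash3a and Abcg1 was not tested. Slc37a1, a sugar-phosphate carrier, had 8.63 ± 1.65 CPM in NOD/ShiLtJ and 2.37 ± 2.2 CPM in A/J. Gm15318 had 8.67 ± 1.49 CPM in NZO/HlLtJ and 1.9 ± 0.833 CPM in NOD/ShiLtJ (SD, n = 3 each). In a count chosen after the values were seen, 129S1/SvImJ, A/J and DBA/2J held the 3 highest means in 2 of the 16 neighbours, Btbd9 and Dnah8, and in 86 of all 14482 genes (0.594%). With library totals as the scale A/J was not among the 3 highest for either gene.

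**Figure D3:**
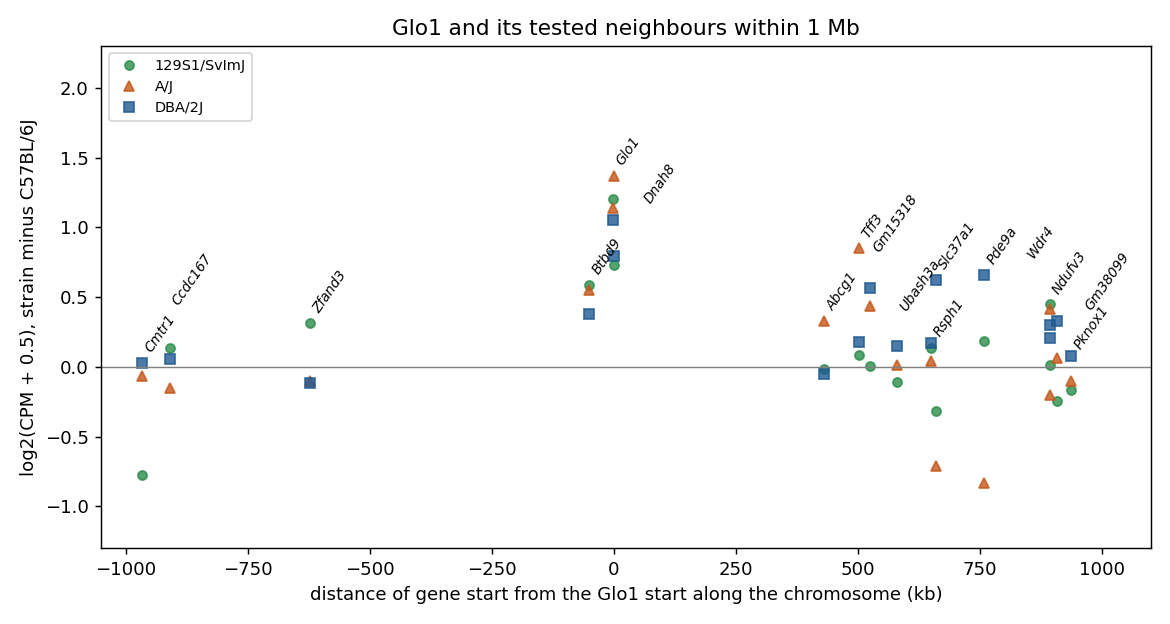
Difference of each strain from C57BL/6J on log2(CPM + 0.5) for Glo1 and its 16 tested neighbours, against the distance of each gene start from the Glo1 start in kb. Circles are 129S1/SvImJ, triangles A/J and squares DBA/2J. All 3 lie above 0 at Btbd9, Glo1 and Dnah8 in the middle of the plot. They also lie above 0, some of them only slightly, at the more distant Tff3, Gm15318, Rsph1 and Wdr4.

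Hagh (ENSMUSG00000024158, chr17:24840143-24864450, plus strand), whose product takes the next step after Glo1, followed another order of strains. CAST/EiJ had 186, 177 and 166 CPM and NZO/HlLtJ 158, 168 and 144 CPM. A/J, the strain with the most Glo1 RNA, had the lowest Hagh mean, with 105, 102 and 91.2 CPM, and C57BL/6J had 138, 112 and 90.9 CPM. The CAST/EiJ libraries lay above all libraries of A/J and C57BL/6J but overlapped those of NZO/HlLtJ, which also lay above C57BL/6J. Over all tested genes, CAST/EiJ lay above C57BL/6J in 24.5% and NZO/HlLtJ in 22.2%. The mean was 176 ± 10.3 CPM in CAST/EiJ, 1.77 times the 99.5 ± 7.3 CPM in A/J (SD, n = 3 each), and 2.46 times with library totals as the scale. NOD/ShiLtJ (135 ± 3.15 CPM), DBA/2J (130 ± 30.1), WSB/EiJ (124 ± 15.98), PWK/PhJ (116 ± 23.5) and 129S1/SvImJ (114 ± 6.74) lay between them, and 1 DBA/2J library, at 163 CPM, reached into the range of NZO/HlLtJ. The order therefore had no step that separated all strains above it from all below.

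Counts of Hagh were whole in all 27 libraries. Hagh differed among the strains as well (edgeR quasi-likelihood adjusted p 0.0034, or 0.00316 with the Kupffer and endothelial markers as covariates). Against C57BL/6J the log2 difference was -0.19 ± 0.17 in A/J (adjusted p 0.625), 0.19 in DBA/2J (adjusted p 0.6) and 0.13 in WSB/EiJ (adjusted p 0.7), so that no pair tested passed. These comparisons share the C57BL/6J libraries. Over the 27 libraries Glo1 had a Pearson correlation of log2 CPM of 0.713 with Btbd9 and -0.448 with Hagh, given as a description over libraries that share strains.

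A list of 32 other genes covered glycolysis and the removal of methylglyoxal, glutathione synthesis and use, repair or sensing of glycated protein, and the regulators Nfe2l2 and Keap1. It gave 30 tested genes, and Glod5 and Ager did not pass the filter. Among the tested genes 28 (93.3%) differed among the 9 strains, against 74.2% of all genes, and their median range was 1.23 on the log2 scale, against 0.94. The 2 genes that did not pass were Haghl, a relative of Hagh, and Gss, the glutathione synthetase gene. In A/J none rose (0 also in DESeq2 and at an unadjusted p under 0.05 in edgeR, which 9.46% of all genes had) and 3 of 30 fell, where 3.81% of all genes were higher and 4.03% lower. These were Aldh2, an aldehyde dehydrogenase, Ldhd, which oxidizes D-lactate, and the glycolytic enzyme Gapdh. Aldh2 fell by 0.57 ± 0.16, Ldhd by 0.54 ± 0.145 and Gapdh by 1.15 ± 0.21 on the log2 scale (SE), with edgeR adjusted p of 0.0236, 0.0209 and 0.000628. The list's median difference between A/J and C57BL/6J was -0.14, against 0.0 for all tested genes.

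In DBA/2J 1 gene of the list rose, the aldo-keto reductase Akr1b7, and 2 fell, Akr1b8 and Gclm, the modifier subunit of glutamate-cysteine ligase, where 4.9% of all tested genes were higher and 4.16% lower. WSB/EiJ had 3 that rose (Akr1b7, the triose-phosphate isomerase Tpi1 and Nfe2l2, which encodes the transcription factor NRF2) and 3 that fell (the aldehyde dehydrogenase Aldh9a1, Gclc and Gapdh), where 6.88% of all tested genes were higher and 6.76% lower. Gclc, the catalytic subunit of glutamate-cysteine ligase, had 283 ± 38.9 CPM in 129S1/SvImJ and 136 ± 15.8 CPM in WSB/EiJ, and Aldh9a1 had 271 ± 14.8 CPM in NZO/HlLtJ and 104 ± 10.96 CPM in WSB/EiJ. Park7, which encodes DJ-1, had 109 ± 4.9 CPM in CAST/EiJ and 39.9 ± 7.12 CPM in A/J (SD, n = 3 each), with an edgeR adjusted p of 1.48e-05. Like Hagh, it was therefore highest in CAST/EiJ and lowest in A/J.

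The 5 widest ranges of the list belonged to Akr1c12, Pgk1, Akr1b3, Akr1b7 and Gapdh. Akr1c12, an aldo-keto reductase, had 40.1 ± 2.05 CPM in 129S1/SvImJ but 3.1 ± 0.44 in NZO/HlLtJ, 2.31 ± 0.382 in CAST/EiJ and 1.42 ± 0.212 in PWK/PhJ (SD, n = 3 each). Pgk1, the glycolytic phosphoglycerate kinase, had 16.9 ± 2.22 CPM in NZO/HlLtJ and 17.2 ± 1.82 in CAST/EiJ, and at least 156 ± 32.7 CPM in each of the other 7 strains. Akr1b3, the aldose reductase gene, had 7.01 ± 0.826 CPM in NOD/ShiLtJ and 0.236 ± 0.109 in CAST/EiJ. Akr1b7 had 3.74 ± 1.35 CPM in WSB/EiJ, 0.601 ± 0.264 in C57BL/6J and 0.0889 ± 0.106 in CAST/EiJ, and Gapdh had 518 ± 126 CPM in PWK/PhJ, 140.4 ± 20.2 in A/J and 140.0 ± 4.84 in CAST/EiJ (SD, n = 3 each). Counts of Akr1c12, Pgk1 and Gapdh were not whole in any library and those of Akr1b3 were not whole in 18 and those of Akr1b7 in 3. These levels are therefore uncertain, as they may depend on how reads were divided between genes. Sequences similar to these genes were not looked for. Of the list's tested genes 7 were not whole in all 27 libraries and 13 were whole in all of them.

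**Figure D4:**
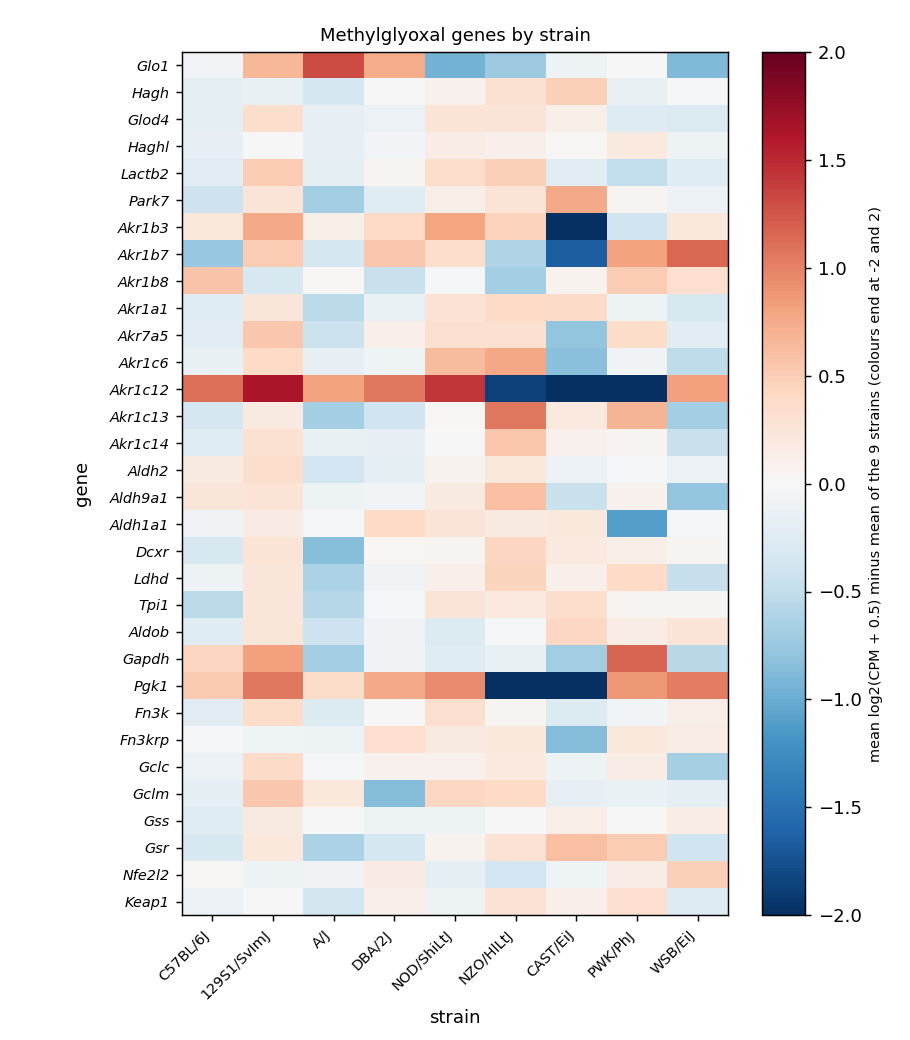
Mean log2(CPM + 0.5) of Glo1, Hagh and the 30 tested genes of the methylglyoxal list (rows) in each strain (columns), as the difference from the mean of the 9 strains. Red is higher and blue lower; Pgk1 is dark blue in NZO/HlLtJ and CAST/EiJ, Akr1c12 in those and in PWK/PhJ, and the Glo1 row is reddest in A/J.

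Cwc22 stood far higher in WSB/EiJ than in the other 8 strains. The WSB/EiJ libraries had 243, 272 and 268 CPM, a mean of 261 ± 15.2 (SD, n = 3), and the 24 libraries of the other strains had 3.75 CPM at the lowest, a median of 6.5 and 10.1 CPM at the highest. In estimated counts this was 5776, 6733 and 5816 in WSB/EiJ, against 218, 183 and 143 in C57BL/6J. The mean was 37.3 times that in C57BL/6J (6.99 ± 0.848 CPM) and 34.4 times that in A/J (7.59 ± 2.25 CPM), the second strain in the order. With library totals as the scale A/J was seventh (6.25 CPM) and 129S1/SvImJ second (7.99 CPM), below 211 CPM in WSB/EiJ. WSB/EiJ lay above all the other 24 libraries in 1.65% of tested genes. As for Glo1, the gene was chosen for this pattern and the values carry no test.

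Below WSB/EiJ every strain overlapped the next, from A/J over NOD/ShiLtJ (7.29 CPM), C57BL/6J, 129S1/SvImJ (6.98), NZO/HlLtJ (6.64), DBA/2J (6.4) and CAST/EiJ (6.2) to PWK/PhJ with 4.57 ± 1.12 CPM. The PWK/PhJ libraries, at 4.11, 5.84 and 3.75 CPM, lay below those of C57BL/6J in the TMM scale, as in 16.5% of tested genes, but overlapped them with library totals as the scale. Counts of Cwc22 were not whole in 15 of 27 libraries. Those were all libraries of 129S1/SvImJ, A/J, CAST/EiJ and WSB/EiJ, 2 of NZO/HlLtJ and 1 of NOD/ShiLtJ. In C57BL/6J, DBA/2J and PWK/PhJ every Cwc22 count was whole.

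The 7 annotated copies held counts mainly in WSB/EiJ and CAST/EiJ. Summed, they had 65.6 ± 3.94 CPM in WSB/EiJ and 5.59 ± 1.2 CPM in CAST/EiJ (SD, n = 3 each). In every library of the other strains each copy held less than 1 estimated count, at most 0.72. To 2 decimals, the copies with identical transcripts were given equal counts in every library but NZO/HlLtJ replicate 2 (0.26 in Gm13691 and 0.36 in the others), such as 219 in each of Gm13691, Gm13693, Gm13694, Gm13696, Gm13697 and Gm13698 in WSB/EiJ replicate 2, where Gm13695 had 142. Their values are therefore a division of shared reads, and the level of a single copy cannot be read from them.

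The copies took 20.1% ± 0.445 of the counts of Cwc22 and copies together in WSB/EiJ and 47.3% ± 7.2 in CAST/EiJ (SD, n = 3 each). In 129S1/SvImJ, A/J, NOD/ShiLtJ and NZO/HlLtJ the share was 0.924% or less, and in C57BL/6J, DBA/2J and PWK/PhJ it was 0. With the copies added, WSB/EiJ had 327 ± 18.8 CPM. CAST/EiJ moved from next to lowest to next to highest, with 11.8 ± 0.875 CPM, and its libraries then lay above those of A/J. WSB/EiJ stood 27.7 times as high as CAST/EiJ, 43.0 times as high as A/J and 46.7 times as high as C57BL/6J in that sum. The order among the 8 lower strains thus changed with the way reads were divided, as it did with the scale, and the first place of WSB/EiJ did not.

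**Figure D5:**
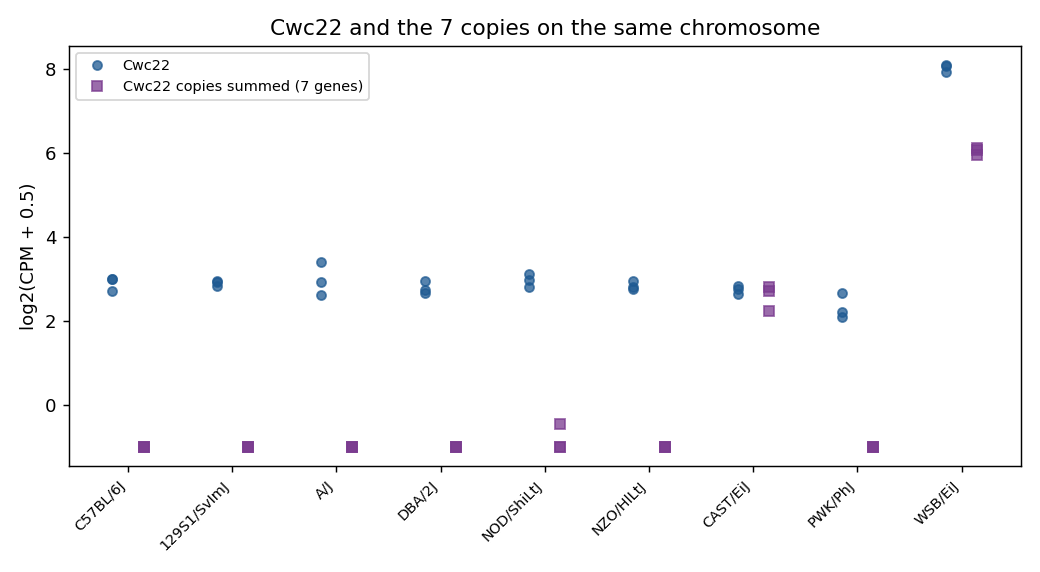
Log2(CPM + 0.5) of Cwc22 (circles) and of the sum of its 7 annotated copies (squares) in each of the 3 libraries per strain. The copies lie well above the bottom of the plot, which is 0 CPM, only in WSB/EiJ and CAST/EiJ, and the WSB/EiJ libraries stand highest for both.

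Near the Cwc22 locus, 20 of 21 annotated genes within 1 Mb were in the table and 4 were tested. None rose or fell in WSB/EiJ, A/J or DBA/2J against C57BL/6J in the edgeR test (at an unadjusted p under 0.05, 1 was higher in WSB/EiJ, Ccdc141, and 1 lower in A/J, Sestd1, which DESeq2 also called, where 13.0% and 9.8% of all genes were), and 3 (75%) differed among the 9 strains, against 74.2% of all genes. Sestd1 had 3.15 ± 0.613 CPM in PWK/PhJ and 0.461 ± 0.437 in A/J, Zfp385b, a zinc finger gene, had 13.0 ± 1.82 CPM in NZO/HlLtJ and 5.12 ± 1.05 in PWK/PhJ, and Ccdc141 had 25.2 ± 0.252 CPM in CAST/EiJ and 10.9 ± 1.51 in 129S1/SvImJ (SD, n = 3 each). The log2 difference of WSB/EiJ from C57BL/6J was -0.73 ± 0.52 for Sestd1, 0.34 ± 0.22 for Zfp385b and 0.61 ± 0.24 for Ccdc141 (SE), with edgeR adjusted p of 0.405, 0.342 and 0.0945. Gm13727, an untested transcript that overlaps the end of Cwc22 on the same strand (chr2:77879753-77881467), had 9, 9 and 10 counts in WSB/EiJ and at most 1 in any other library.

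A list of 35 genes of the exon junction complex, of nonsense-mediated decay and of the spliceosome was tested in full. Among them 21 (60.0%) differed among the 9 strains, against 74.2% of all genes, with a median range of 0.5 on the log2 scale, against 0.94. With no filter on low counts 13 of the 35 were called, and likewise 13 with the replicate numbers added as a block. The share of 74.2% belongs to the main fit, and in both alternatives the count over all genes stayed within 1.5 times. In WSB/EiJ 1 rose, Casc3, a core protein of the exon junction complex, and 2 fell, Rnps1, a splicing activator bound to that complex, and the spliceosomal ubiquitin ligase Prpf19. Of all tested genes 6.88% were higher and 6.76% lower in WSB/EiJ, so these shares of 35 genes were not above the background. Casc3 rose by 0.42 ± 0.13, and Prpf19 fell by 0.86 ± 0.15 on the log2 scale (SE), with edgeR adjusted p of 0.0283 and 0.000218. Eif4a3, which the Cwc22 protein binds, had 22.7 ± 0.904 CPM in CAST/EiJ and 16.1 ± 1.86 in C57BL/6J (SD, n = 3 each). Its difference between WSB/EiJ and C57BL/6J was 0.02 ± 0.17 (SE, edgeR adjusted p 0.965), and its strain effect did not pass (adjusted p 0.0721).

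Rnps1 separated the strains most widely in this list. It had 13.6 ± 1.59 CPM in PWK/PhJ, 11.7 ± 1.8 in C57BL/6J and 8.3 ± 0.671 in CAST/EiJ, and between 2.33 ± 0.171 in A/J and 3.27 ± 0.37 in NZO/HlLtJ in the other 6 strains (SD, n = 3 each). Against C57BL/6J, Rnps1 fell by 2.04 ± 0.16 in WSB/EiJ, by 2.33 ± 0.17 in A/J and by 2.19 ± 0.16 in DBA/2J (SE, edgeR adjusted p 9.22e-10, 1.68e-10 and 4.33e-10), comparisons that share the C57BL/6J libraries. A/J and DBA/2J have low Cwc22, so a low Rnps1 was not particular to WSB/EiJ, and Rnps1 counts were not whole in 22 libraries. A/J also had 1 gene that rose, Upf3b, a nonsense-mediated decay factor, against 3.81% of all tested genes. In DBA/2J 0 rose in edgeR and DESeq2, against 4.9% of all tested genes in edgeR, and 4 were higher at an unadjusted edgeR p under 0.05, against 10.7%. Magohb had 1.43 ± 0.286 CPM in PWK/PhJ and 0.229 ± 0.0653 in CAST/EiJ, Upf3a 9.74 ± 2.75 in PWK/PhJ and 3.51 ± 0.401 in WSB/EiJ, and Pnn 24.9 ± 3.44 in A/J and 10.9 ± 2.6 in NZO/HlLtJ (SD, n = 3 each).

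The genes most like each of the 4 were taken by Pearson correlation of log2 CPM over the 27 libraries, among 6336 genes averaging at least 10 CPM. For Glo1 they were 6820431F20Rik (0.88), Gm21092 (0.81), Cpne1 (0.80) and 2610005L07Rik (0.79), none of which had a whole count in any library. Of these, 6820431F20Rik, Gm21092 and 2610005L07Rik are annotated as pseudogenes on chromosome 8. For Btbd9 they were Mapk1ip1l (0.77), Slk (0.77), Nln (0.76) and Socs4 (0.75), all whole in every library and with their 2 highest means in A/J and 129S1/SvImJ. For Hagh they were Mrps7 (0.92), Nubp2 (0.92), Aars (0.91) and Ahsa1 (0.90), each highest in CAST/EiJ, second in NZO/HlLtJ and lowest in A/J, as Hagh was. Nubp2 lies on chromosome 17 as well.

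For Cwc22 the most alike were Susd2 (0.89), Gusb (0.89), Lrba (0.86) and Lmo7 (0.81), all highest in WSB/EiJ. Susd2, a membrane protein gene, had 204 ± 35.8 CPM there and 5.33 CPM in CAST/EiJ, the next strain. Gusb, which encodes the lysosomal enzyme beta-glucuronidase, had 94.6 ± 20.9 CPM in WSB/EiJ and 36.2 CPM in NOD/ShiLtJ, the next strain. These are 4 genes on 4 chromosomes other than chromosome 2, named by their correlation alone.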

How the data were processed

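PolyA-selected RNA of 27 hepatocyte libraries was sequenced, per the labels' protocols, with the TruSeq RNA Sample Prep Kit v2. The authors deposited a table of estimated counts (expected counts) per Ensembl gene, not scaled to depth. The submitters' processing notes name the GRCm38 build (mm10), FastQC 0.11.5 and DESeq2, with no role; the aligner, the counter and the annotation are not given in the sources used here. Estimated counts divide reads between similar genes, so such levels depend on that division.

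Counts were rounded and tested in R 4.3.3 with edgeR 4.0.16: filterByExpr by strain, TMM scaling, and 1 quasi-likelihood fit to all 27 libraries with strain as the factor. P-values were adjusted by Benjamini-Hochberg over 14482 genes and called under 0.05. CPM divide counts by library size times TMM factor, and a value of 0.5 was added before log2 for strain ranges. Strain levels of Glo1 and Cwc22 were not tested. Transcripts of the members were matched to GENCODE M21 transcripts by blastn at 90% identity or more over 200 bases or more. All coordinates and sequences are from GENCODE M21 on GRCm38; sequences of the Glo1 pair are not reported here. Gene tests were tested on simulated data.

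The members and lists were chosen with earlier results of these data known. Named genes were the members, Dnah8 and Glp1r, matched copies, the 5 called genes of each list with the widest strain range, up to 6 called neighbours with a range of at least 1 on the log2 scale, and the 4 most correlated genes of each member. Other genes called against C57BL/6J in a list, and Eif4a3, Park7, Haghl, Gss and Gclc, were named after their values were seen. Alternatives were DESeq2 1.42.0, median-of-ratios factors, other filters, marker covariates, a replicate block, each library left out, and copies added to Glo1 and Cwc22.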

Additional observations from a re-analysis of the deposited data

How the results depend on the processing

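The strain effects on Btbd9 and Hagh stayed under the threshold in all 33 alternative fits each. Leaving out a library gave edgeR adjusted p of 6.15e-05 to 0.000311 for Btbd9 and 0.00103 to 0.0143 for Hagh, and DESeq2 gave 6.53e-11 and 7.67e-06. The ratio of Cwc22 in WSB/EiJ to A/J was 34.4, and 43.0 with matched copies added, whether all matches or, in an alternative chosen after seeing the data, those of at least 500 bases. Without a library it ran from 30.4 to 41.0, at the ends without A/J replicate 2 and replicate 1. The Glo1 ratio of A/J to C57BL/6J was 2.62, 2.755 with all matches added and 3.33 with only those of at least 500 bases, and 2.43 to 2.94 without a library. Of the exon junction, decay and spliceosome list 21 genes were called, 13 with no filter on low counts, 13 with the replicate block and 17 to 25 without a library. Over all genes 10746 were called in the main fit, and 10352 to 11245 without a library. The counts of the other lists, of the strain pairs and of all genes stayed within 1.5 times. As deviations from the strain mean, same-numbered libraries of different strains correlated at a median of 0.0232 (17 of 76 pairs over 0.1). Differently numbered ones correlated at a median of -0.00458 (44 of 248 pairs over 0.1). With 3 libraries per strain, this check cannot tell whether the replicate numbers mark libraries handled together. A replicate block on those numbers gave an adjusted p of 0.000896 for Btbd9 and 0.027 for Hagh. The scaling of Btbd9, Hagh and Dnah8 by library totals was chosen after seeing the data. Depth limits Dnah8, Glp1r and Gm13727, which held few counts.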
